A study of Mus musculus with 12 samples.

Results

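The question was whether the difference in transcript levels between kidney cells that express wild-type human sex hormone-binding globulin (SHBG) and cells that express its S42L mutant depended on which androgen the cells had received. All 12 of the 12 arrays in the series entered, in 4 groups of 3 arrays taken from the sample titles. The groups were wild-type SHBG with 5α-dihydrotestosterone (DHT), S42L with DHT, wild-type SHBG with testosterone, and S42L with testosterone. The androgen dose was 100 nM for 24 h in each. The cells were PKSV-PCT, an immortalized cell line from the proximal convoluted tubule of mouse kidney, and the assay was the Illumina Mouse WG-6 v2.0 bead array on total RNA. The S42L protein has no measurable steroid binding, per the labels, and served as the control for binding-competent SHBG.

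Every group carried a human SHBG cDNA in the pRC/CMV vector, and there was neither a line without SHBG nor a culture without androgen. Each line came from limiting dilution cloning and was picked by the SHBG found in its medium, so the SHBG variant and the clone cannot be told apart. The growth medium of all groups contained dexamethasone, insulin, triiodothyronine, EGF and added glucose. A period of 3 days without steroid is also given, and the wording leaves its order relative to the hormone uncertain. The 6 DHT arrays lay on 1 chip and the 6 testosterone arrays on another, so a plain comparison of androgens cannot be told apart from a chip difference. On both chips S42L held the upper positions and wild-type SHBG the lower ones. The variant difference under each androgen therefore cannot be told apart from a difference in array position either. A chip effect that adds the same log2 amount to both lines drops out when the variant difference under testosterone is subtracted from that under DHT. Nothing in the labels says that the replicates came from different cultures. The p-values therefore cover the spread among these arrays, which may be technical. The human transgene was not analysed here, since the array carries mouse probes.

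SHBG is the plasma carrier of androgens and estradiol, and outside the cell it holds steroid back from its targets. DHT binds SHBG more tightly than testosterone does. Inside cells both hormones act by changing transcription of their target genes. Oxygen sensing, to which the leading gene belongs, works through prolyl hydroxylases encoded by Egln1, Egln2 and Egln3, which mark the α subunits of the hypoxia-inducible factors (HIF) for destruction by the von Hippel-Lindau protein when oxygen is present. HIF in turn raises transcription of glycolytic enzymes, glucose transporters and of Egln1 and Egln3 themselves, binding DNA at sites with the core ACGTG or GCGTG.

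The windows around the start sites of the leading oxygen-sensing gene and of the other genes of its pathway and of glycolysis with the lowest p-values (Aldoc, Fam162a and Eno2) are shown first, as RefSeq gives them on build GRCm38.p6, from 250 bases before to 50 bases after the start, 5′ to 3′ on the gene's strand. Capitals mark the HIF core ACGTG or GCGTG on either strand, which reads CACGT or CACGC on the opposite one. The Egln3 window is chr12:54203825-54204124 on the minus strand, the Fam162a window chr16:36071512-36071811 on the minus strand, the Aldoc window chr11:78322823-78323122 on the plus strand and the Eno2 window chr6:124769624-124769923 on the minus strand.
Egln3: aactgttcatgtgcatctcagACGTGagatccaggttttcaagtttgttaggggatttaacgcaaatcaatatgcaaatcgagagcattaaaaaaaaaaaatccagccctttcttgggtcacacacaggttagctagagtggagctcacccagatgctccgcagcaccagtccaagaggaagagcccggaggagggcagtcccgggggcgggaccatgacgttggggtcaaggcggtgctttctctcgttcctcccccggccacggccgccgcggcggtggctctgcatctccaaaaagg
Fam162a: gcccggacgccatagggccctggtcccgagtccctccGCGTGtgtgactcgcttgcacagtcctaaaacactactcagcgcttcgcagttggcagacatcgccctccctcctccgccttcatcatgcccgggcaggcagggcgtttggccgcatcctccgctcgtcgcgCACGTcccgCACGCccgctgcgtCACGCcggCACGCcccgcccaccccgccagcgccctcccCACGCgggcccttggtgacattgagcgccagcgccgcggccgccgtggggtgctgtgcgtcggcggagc
Aldoc: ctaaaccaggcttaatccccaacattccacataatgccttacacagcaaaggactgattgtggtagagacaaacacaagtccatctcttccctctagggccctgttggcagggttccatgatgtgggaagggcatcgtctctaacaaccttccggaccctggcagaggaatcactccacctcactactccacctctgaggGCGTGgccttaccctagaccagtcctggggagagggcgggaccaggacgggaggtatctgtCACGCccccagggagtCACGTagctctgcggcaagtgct
Eno2: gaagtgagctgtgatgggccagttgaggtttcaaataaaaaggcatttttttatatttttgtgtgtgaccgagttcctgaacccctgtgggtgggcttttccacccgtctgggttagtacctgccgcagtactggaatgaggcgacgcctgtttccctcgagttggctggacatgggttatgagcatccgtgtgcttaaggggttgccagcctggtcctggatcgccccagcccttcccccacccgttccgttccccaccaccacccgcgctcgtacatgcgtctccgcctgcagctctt
The Egln3 window held 1 core, the Fam162a window 6, this Aldoc window 3 and the Eno2 window 0, while a second Aldoc start site had a window with 1. The Tpi1 and Gbe1 windows also held 0. At least 1 core stood in 43.8% of all 32851 promoter windows and in 61.5% of the 10813 windows of tested genes. Of the 46 HIF-target and glycolysis genes described further on, 41 matched the RefSeq table by symbol, and 48 of their 64 windows, 75%, held a core. Many of them were listed as HIF targets, so this share says nothing about the interaction. For the 12 matched members lower at an unadjusted p under 0.05 in limma, 13 of 17 windows (76.5%) held a core. The core ACGTG alone stood in 6 of these 17 windows and in 31 of the 64. The androgen response half-site AGAACA was found on either strand in 19% of all windows, 12.5% of those of tested genes and 10 of those 64. The full palindromic element, that half-site followed by 3 unspecified bases and its own reverse complement, was in 3 of all windows and in 0 of the 64. These are matches of letters, and no binding was measured.

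Arrays averaged 560.2 to 707.4 signal units before normalization, with 17314 to 19204 of 45281 probes detected (detection p under 0.05). Within groups, arrays correlated at 0.992 to 0.995, apart from the wild-type testosterone group at 0.983 to 0.991, in which replicate 3 was the least like the others. Of 14 proximal tubule markers on the array 8 were detected on all 12 arrays, while Cubn, Slc34a1, Slc22a6 and Dpp4, which mark the differentiated segment, were undetected on all. The summed level of the tested tubule markers was 6502 to 6696 units in wild-type DHT arrays, 12911 to 15032 in S42L DHT, 7679 to 8261 in wild-type testosterone and 16900 to 17756 in S42L testosterone. Markers of other cell types were detected in part, and their summed levels were higher in S42L than in wild-type cells under both androgens. The fibroblast sum, in which Dcn was detected on all 12 arrays, was 114 to 135 in wild-type DHT, 1915 to 2379 in S42L DHT, 86 to 114 in wild-type testosterone and 1437 to 1725 in S42L testosterone. Its tested members were Dcn and Col1a1 alone. Some members lay the other way from their sums. Col1a1 was 0.36 log2 units higher in wild-type cells under DHT and 0.70 under testosterone, and endothelial Kdr 0.73 and 0.37. Neither gene's difference was called under either androgen. Endothelial Egfl7 and Flt1, Csf1r of the immune list, podocyte Synpo and Podxl, and distal Slc12a3, Krt7, Gata3 and Cdh16 were also detected on all 12 arrays. The distal sum was 6674 to 7133 in wild-type DHT, 9163 to 9471 in S42L DHT, 6747 to 7166 in wild-type testosterone and 9263 to 9884 in S42L testosterone. The endothelial, immune and podocyte sums reached at most 873 in wild-type arrays and 1583 in S42L arrays. The part of these markers in the results was not tested. The fibroblast markers Lum, Pdgfra, Pdgfrb and Postn, the leukocyte markers Ptprc and Cd52, the podocyte marker Nphs1 and the distal marker Calb1 were undetected throughout. Total RNA cannot separate a change in the share of cells from a change per cell.

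The variant difference reached many genes under each androgen, and most calls were shared. Of 19480 tested probes, 4467 (22.9%) passed an adjusted p under 0.05 between wild-type and S42L cells under DHT, 2192 of them higher (11.3%) and 2275 lower (11.7%) in wild-type cells. Under testosterone 4635 (23.8%) passed, 2235 higher (11.5%) and 2400 lower (12.3%). The same sign was called under both for 3185 probes, which is 71.3% of the DHT calls and 68.7% of the testosterone calls. Of the 1278 probes called under DHT alone, 1182 had the same sign under testosterone. Across probes the differences correlated at r = 0.851, a description in which the probes of a line share its arrays. Opposite signs were called for 4 probes, those of Egln3, Dok3, Nacc2 and 1 probe without a gene name.

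**Figure D1:**
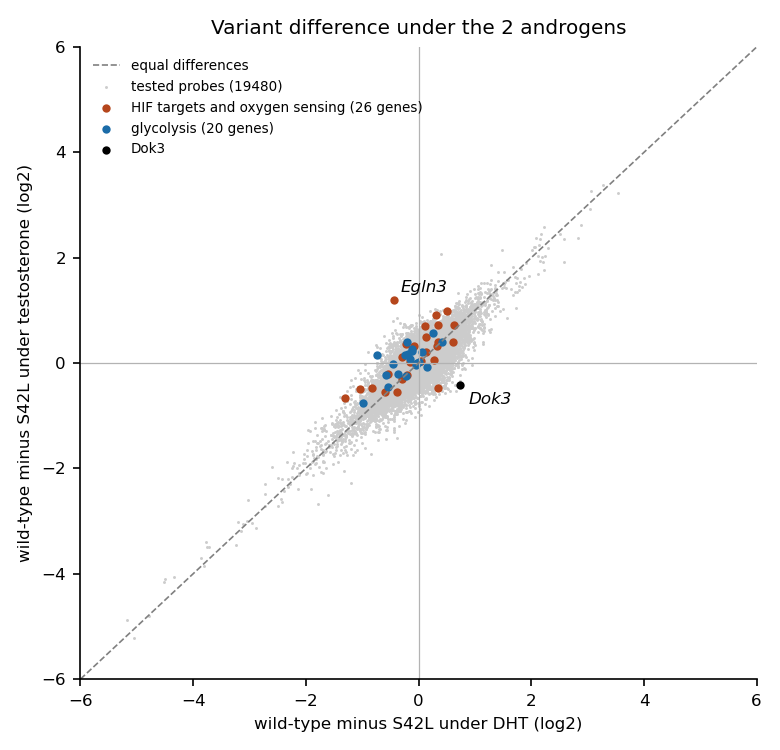
Difference between wild-type and S42L cells (log2) under DHT on the horizontal axis and under testosterone on the vertical axis. Grey points are the 19480 tested probes, coloured points the genes of 2 lists, and the dashed line marks equal differences. Egln3, at -0.43 and 1.20, stands off the line on the upper left, and Dok3, at 0.74 and -0.42, on the lower right.

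The androgen dependence of that difference, the interaction, is the difference under DHT minus the difference under testosterone. A single probe passed in limma's fit over all 12 arrays, 1 of 19480 (0.00513%), with 0 higher and 1 lower. At an unadjusted p under 0.05 there were 905 probes (4.65%), 460 higher (2.36%) and 445 lower (2.28%), a split that became 578 and 225 when arrays were scaled to a common median instead. Over the 10340 named genes, each by its brightest probe, 1 passed (0.00967%) and 423 (4.09%) had an unadjusted p under 0.05. The lowest adjusted p after the first probe was 0.121. The median interaction was 0.004, with an interquartile range of -0.132 to 0.139. In the median its 95% confidence interval reached 0.446 to either side, and for 17256 probes (88.6%) the whole interval lay within 1 log2 unit of 0. Interactions beyond 1 log2 unit were found for 21 probes, of which 13 were undetected on all arrays of at least 1 group.

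Egln3, the oxygen-sensing prolyl hydroxylase, was the called gene. Its log2 signal was 7.99, 8.00 and 8.00 in wild-type DHT arrays and 8.40, 8.54 and 8.33 in S42L DHT arrays. It was 9.04, 8.93 and 9.07 in wild-type testosterone arrays and 7.71, 7.78 and 7.95 in S42L testosterone arrays. The 3 wild-type testosterone arrays stood above the other 9, the 3 S42L testosterone arrays below the other 9, and no 2 groups overlapped. Egln3 was thus lower in wild-type than in S42L cells under DHT (-0.43, a ratio of 0.743, adjusted p = 0.00919 in limma) and higher under testosterone (1.20, a ratio of 2.29, adjusted p = 7.01e-06). The interaction was -1.63 ± 0.14 (SE, n = 3 arrays per group), with an adjusted p of 0.00135 in limma. Leaving out each array in turn gave -1.57 to -1.70, called every time. The call was lost with array position as a block (limma, adjusted p = 0.118), and over all 23 alternatives the adjusted p ran from 1.38e-05 to 0.195.

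Egln3 has other probes, and they do not repeat this value. A second, dim probe was detected on 7 of 12 arrays. Its signals were 5.21, 4.87 and 5.23 in wild-type DHT, 5.22, 4.65 and 4.84 in S42L DHT, 5.69, 5.30 and 5.05 in wild-type testosterone and 5.15, 5.13 and 4.92 in S42L testosterone. These groups overlapped, and the interaction of that probe was -0.08 ± 0.26 (SE). Another probe was detected on 0 of 12 arrays. With the mean of its tested probes, Egln3 had an interaction of -0.85 and an adjusted p of 0.195.

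**Figure D2:**
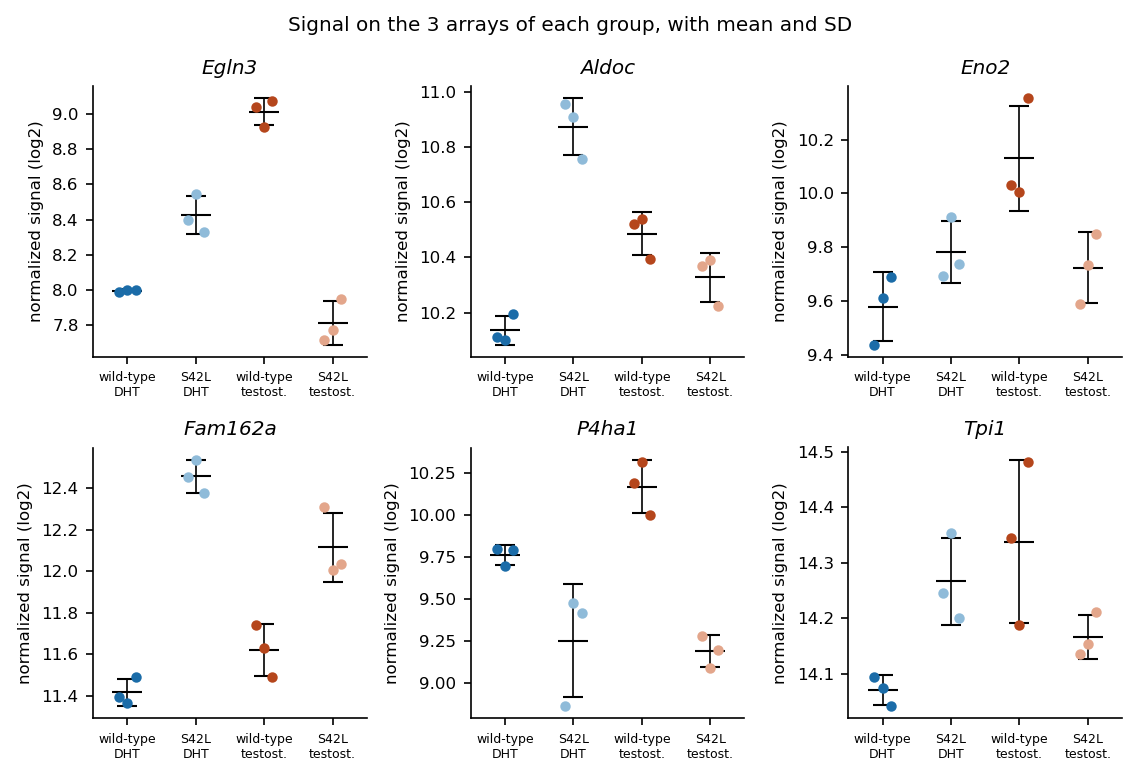
Normalized log2 signal of 6 genes of oxygen sensing and glycolysis, 1 panel per gene, with a point for each array, bars for the mean and whiskers for the SD of 3 arrays. Vertical axes differ between panels and do not start at 0. Egln3 and P4ha1 were highest on the wild-type testosterone arrays, Aldoc and Fam162a on the S42L DHT arrays.

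The other oxygen-sensing genes lay mostly on the same side as Egln3 at a fraction of its size. Of 26 tested genes of HIF targets and oxygen sensing, 18 had an interaction below 0, against 48.8% of all 10340 named genes, and their median was -0.246, against 0.005. With the mean of each gene's tested probes that median was -0.141, with 17 below 0. Egln3 was the 1 of the 26 that passed the test. At an unadjusted p under 0.05, 7 were lower and 0 higher, where 1.81% of all genes were lower and 2.28% higher. The list was drawn up with earlier results of these arrays known, so the counts are a description and no independent evidence of a direction. Apart from Egln1, Slc2a1, Pdk1, Ldha, Vegfa, Ndrg1, Egln3 and Aldoc, the members named from it and from the glycolysis list were named after their values were seen.

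Among the hydroxylases themselves, Egln1, the main oxygen sensor of most cells, measured 6.85, 6.64 and 6.65 in wild-type DHT and 6.29, 7.07 and 6.41 in S42L DHT. It measured 7.37, 7.35 and 7.25 in wild-type testosterone and 6.75, 6.47 and 6.66 in S42L testosterone. The wild-type testosterone arrays were above all others, and the DHT groups overlapped. Its interaction was -0.58 ± 0.24 (SE, unadjusted p = 0.0347 in limma), and that of its other probes -0.55 and -0.16. Egln2, which is not a HIF target, had 0.16 ± 0.24, the reverse sign and within its error of 0. Hif1a, the HIF α subunit, stood at 0.01, Hif1an, the asparagine hydroxylase that restrains HIF, at 0.02, and Vhl, which encodes the protein that recognizes hydroxylated HIF, at 0.22 ± 0.21 (SE). For Egln2, Hif1a, Hif1an and Vhl the 95% confidence intervals included 0.

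Fam162a, a mitochondrial HIF target, measured 11.40, 11.37 and 11.49 in wild-type DHT and 12.45, 12.54 and 12.38 in S42L DHT. It measured 11.74, 11.63 and 11.49 in wild-type testosterone and 12.31, 12.01 and 12.03 in S42L testosterone. It was lower in wild-type cells under both androgens, by more under DHT (-1.04, limma's adjusted p = 5.07e-05, against -0.49, adjusted p = 0.00743). Its interaction was -0.54 ± 0.16 (SE, adjusted p = 0.886 in limma). P4ha1, a collagen prolyl hydroxylase, measured 9.80, 9.70 and 9.79 in wild-type DHT, 8.86, 9.47 and 9.42 in S42L DHT, 10.19, 10.32 and 10.00 in wild-type testosterone and 9.28, 9.09 and 9.20 in S42L testosterone. By this probe P4ha1 was higher in wild-type cells under both androgens, by less under DHT, with an interaction of -0.47 ± 0.22 (SE). A second, less bright probe gave differences of -0.04 under DHT and 0.27 under testosterone, and an interaction of -0.30. So a gene lower and a gene higher in wild-type cells, the latter by its brighter probe only, both had a negative interaction. P4ha2, which encodes a related subunit, had -0.34, with a second probe at -0.71.

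Bnip3l, a mitophagy receptor, had -0.41, Ak4, a mitochondrial adenylate kinase, -0.62, and Ddit4, an inhibitor of mTORC1, -0.37. Gbe1, the glycogen branching enzyme, had -0.64 but was undetected on all 6 wild-type arrays, so its value rests on the S42L arrays. Several classical HIF targets stood near 0. Vegfa, the endothelial growth factor, had -0.07, Ndrg1, a stress-response gene, -0.05, Bhlhe40, a transcriptional repressor, -0.08 and Kdm3a, a histone demethylase, 0.03. Second probes gave 0.10 for Vegfa and -0.20 for Ndrg1, and the other 2 tested probes of Kdm3a gave -0.10 and -0.21. The highest member, Pfkfb3, a regulator of glycolytic flux, had 0.81 ± 0.41 (SE) and was detected on 4 of 12 arrays. Of the other listed members, Bnip3, also a mitophagy receptor, was detected on 1 of 12 arrays and not tested. Car9, Epas1, Ero1l, Higd1a, Loxl2, Selenbp1 and Stc2 had no tested probe under their name either.

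**Figure D3:**
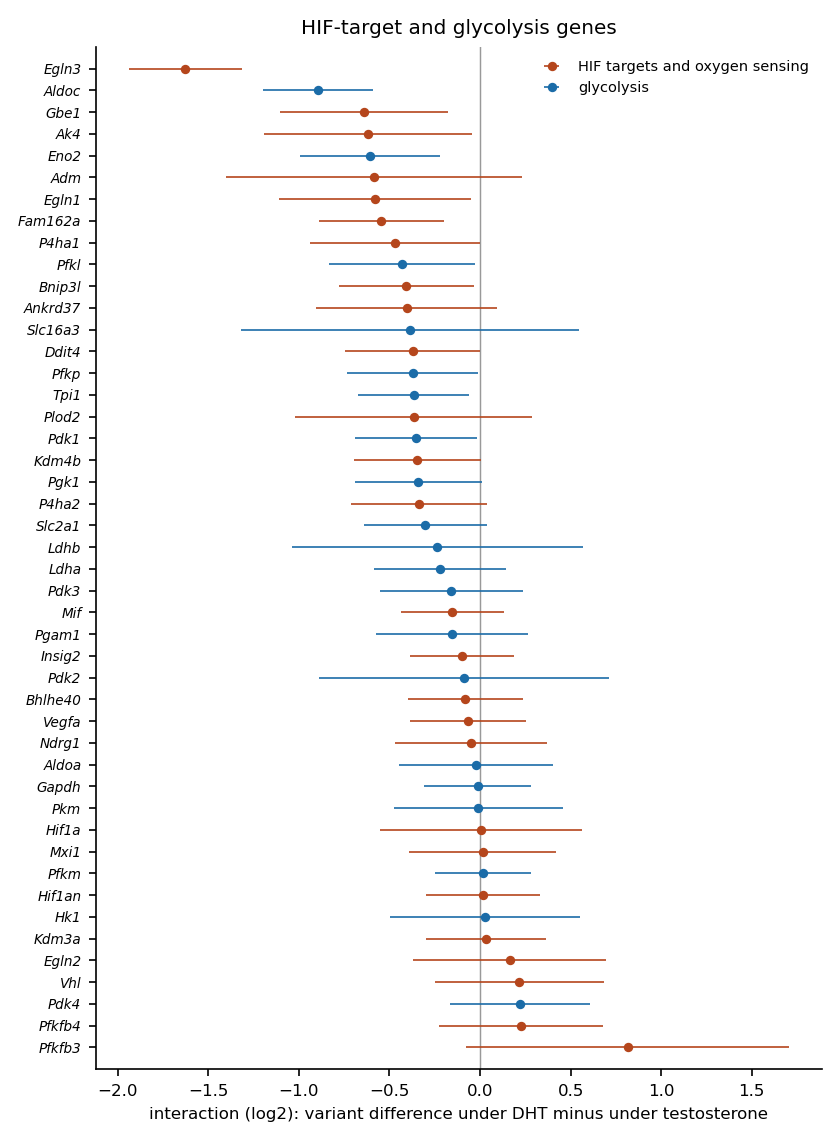
Interaction (log2) of the 46 tested genes of oxygen sensing and HIF targets (red) and of glycolysis (blue), 1 row per gene, with 95% confidence intervals from limma. Of the 46, 35 lie below 0, and Egln3 at -1.63 lies furthest left.

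Glycolysis, the conversion of glucose to pyruvate and lactate, also lay mostly below 0, without a called gene. Of 20 tested genes 17 had an interaction below 0, against 48.8% of all genes, the median was -0.229, and 0 passed the test in limma. At an unadjusted p under 0.05, 6 were lower and 0 higher, beside the 1.81% and 2.28% of all genes. Eno1, Gpi1, Hk2, Slc16a1 and Slc2a3 had no tested probe under their name.

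Aldoc, the aldolase isoform C, measured 10.11, 10.10 and 10.19 in wild-type DHT and 10.95, 10.91 and 10.76 in S42L DHT. It measured 10.52, 10.54 and 10.40 in wild-type testosterone and 10.37, 10.39 and 10.23 in S42L testosterone. The DHT groups were apart, and the testosterone groups did not overlap but nearly touched. Aldoc was lower in wild-type cells under DHT (-0.74, adjusted p = 0.000249 in limma), while the testosterone difference was 0.16 (adjusted p = 0.279). Its interaction of -0.89 ± 0.14 (SE) missed the threshold (limma, adjusted p = 0.186). It passed without background correction, with an offset of 50 and with a variance prior that follows the signal (limma, adjusted p = 0.00465, 0.047 and 0.00989), and over all 23 alternatives the adjusted p ran from 0.00465 to 0.67.

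Eno2, the neuronal enolase isoform, measured 9.44, 9.61 and 9.69 in wild-type DHT, 9.69, 9.91 and 9.74 in S42L DHT, 10.03, 10.01 and 10.35 in wild-type testosterone and 9.59, 9.73 and 9.85 in S42L testosterone. Its wild-type testosterone arrays were above the other 9, and its interaction was -0.61 ± 0.18 (SE, adjusted p = 0.886 in limma). Tpi1, triosephosphate isomerase, was measured by 3 probes, with interactions of -0.37, -0.34 and -0.28. Pfkl and Pfkp, the liver and platelet subunits of phosphofructokinase, had -0.43 and -0.37, with second probes at -0.63 and -0.56. Pdk1, a pyruvate dehydrogenase kinase, had -0.35 and a second, dim probe -0.50. Over both lists 19 genes had several tested probes. For 12 of them all probes lay below 0, for 0 all lay above 0, and for 7 the signs were mixed, namely Hk1, Insig2, Kdm3a, Kdm4b, Mif, Pfkm and Vegfa.

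Pgk1, phosphoglycerate kinase, had -0.34, Slc2a1, the glucose transporter GLUT1, -0.30, and Ldha, lactate dehydrogenase A, -0.22. Other enzymes stood near 0. Aldoa, the main aldolase, had -0.02, Gapdh -0.01 and Pkm, pyruvate kinase, -0.01, with confidence intervals that reached 0.424, 0.293 and 0.467 to either side. Pfkm, the muscle phosphofructokinase subunit, had 0.02 and by its other probes -0.34 and -0.18, Hk1, a hexokinase, 0.03 and -0.32, and Pdk4, another pyruvate dehydrogenase kinase, 0.22. Pgm1, phosphoglucomutase, which joins glycogen to glycolysis and was listed with gluconeogenesis, had -0.48 and -0.61 by its 2 probes.

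Taking both lists as 46 genes, 35 (76.1%) had an interaction below 0, against 48.8% of all genes, with a median of -0.229. Without Egln3 the counts were 34 of 45 and the median -0.223. Among the 41 detected on all 12 arrays 31 were below 0, against 48.5% of the 8436 named genes so detected. The medians were -0.223 for the 41 and 0.006 for the 8436. The median difference between wild-type and S42L cells was -0.128 under DHT and 0.099 under testosterone. At an unadjusted p under 0.05, 13 of the 46 were lower and 0 higher, beside 1.81% and 2.28% of all genes. That 13 dropped to 5 lower and 1 higher with median scaling, which moved the median of all genes to 0.073 and that of the 46 to -0.187. It dropped to 6 lower and 1 higher without S42L DHT replicate 2, to 8 lower without wild-type DHT replicate 1, to 8 lower and 1 higher without S42L testosterone replicate 2, to 7 lower without S42L testosterone replicate 3, and to 7 lower with array position as a block. Over all tested probes the lower ones fell from 445 to 225 with median scaling. In the other settings, in the order given, they numbered 426, 418, 369, 370 and 454. Leaving out each array in turn kept the median of the 46 between -0.271 and -0.17.

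The arrays behind these medians were not the same in both lists. The mean deviation of the oxygen-sensing genes from their own average was -0.09, -0.107 and -0.101 in wild-type DHT and -0.067, 0.039 and -0.016 in S42L DHT. It was 0.125, 0.123 and 0.157 in wild-type testosterone and 0.019, -0.022 and -0.06 in S42L testosterone. The wild-type arrays of each androgen lay outside the range of the S42L arrays, low under DHT and high under testosterone. For glycolysis it was -0.059, -0.131 and -0.084 in wild-type DHT and 0.031, 0.206 and 0.1 in S42L DHT. It was 0.018, 0.117 and -0.121 in wild-type testosterone and 0.006, -0.01 and -0.074 in S42L testosterone. Here the DHT groups were apart and the testosterone groups overlapped, with wild-type testosterone replicate 3 the lowest and replicate 2 the highest of their group. Without wild-type testosterone replicate 2 the glycolysis median was -0.111, with 13 of 20 below 0.

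**Figure D4:**
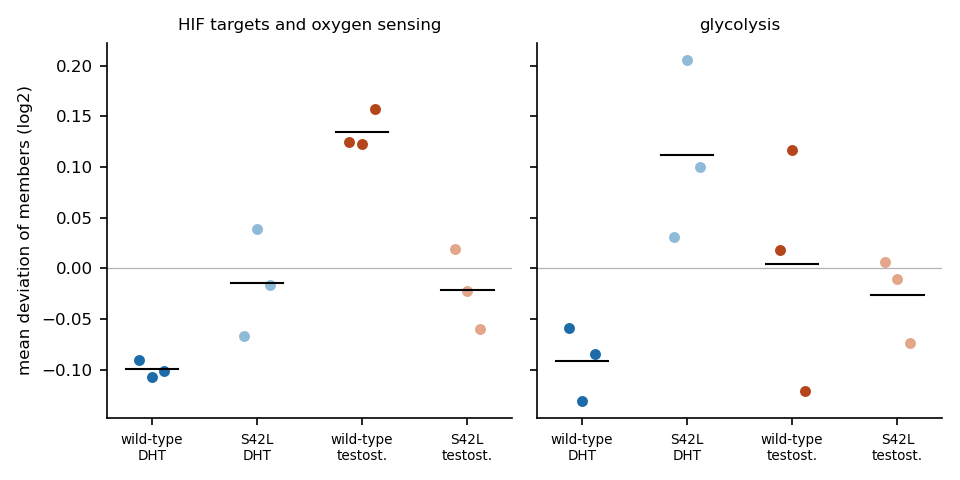
Mean deviation of the list members from each gene's mean over 12 arrays (log2), with a point per array and a bar for the mean of 3. In oxygen sensing the wild-type DHT arrays lie between -0.107 and -0.09 and the wild-type testosterone arrays between 0.123 and 0.157.

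Counted gene by gene, 7 of the 46 (15.2%) had all 3 wild-type testosterone arrays above the other 9, against 2.07% of all genes. These were Bhlhe40, Ddit4, Egln1, Egln3, Eno2, P4ha1 and Pfkp. All 3 wild-type DHT arrays were below the other 9 for 5 of the 46 (10.9%), Aldoc, Bnip3l, Fam162a, Mxi1 and Tpi1, against 1.93% of all genes. All 3 S42L DHT arrays were above the other 9 for 5 as well (10.9% against 3.41%), Aldoc, Fam162a, Kdm4b, Pdk1 and Pdk3. The wild-type DHT arrays were highest for 0 of the 46 and the S42L DHT arrays lowest for 0, against 2.17% and 3.49% of all genes. The wild-type testosterone arrays were lowest for Egln2 and Pfkm (4.35% against 2.1%), the S42L testosterone arrays highest for Mxi1 and Ndrg1 (4.35% against 3.58%) and lowest for Ak4, Egln3 and Slc2a1 (6.52% against 2.78%). These counts use the same arrays as the interaction, and such an order can be met with an interaction near 0. Mxi1 had 0.01, with DHT minus testosterone differences of -0.50 in wild-type and -0.51 in S42L cells. Bhlhe40 had -0.08.

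Genes tied to androgens themselves showed no called interaction, where 1 of all 10340 named genes (0.00967%) was called. With so small a share, 0 calls in a list says nothing particular about its members. Of 12 tested genes known to respond to androgen in mouse kidney, 0 passed, 7 lay below 0 and the median was -0.042. In limma, 1 of the 12 had an unadjusted p under 0.05, beside 4.09% of all genes. Odc1, ornithine decarboxylase, the classical androgen-induced enzyme of mouse kidney, had -0.11 ± 0.18 (SE), and Gusb, β-glucuronidase, 0.21 ± 0.16, with its other 3 probes between -0.04 and 0.10. Timd2, a ferritin receptor, measured 7.48, 7.57 and 7.53 in wild-type DHT and 4.71, 5.32 and 4.80 in S42L DHT. It measured 7.37, 7.01 and 7.38 in wild-type testosterone and 4.90, 5.48 and 5.64 in S42L testosterone. It was higher in wild-type cells under both androgens (2.59 and 1.91), with an interaction of 0.68 ± 0.28 (SE) by this probe and 0.21 by its other one. Cyp4b1, a cytochrome P450, and Adh1, an alcohol dehydrogenase, likewise differed between the lines under both androgens, with interactions of -0.10 and 0.24.

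Of 24 androgen-response genes of other tissues, 12 lay below 0, the median was 0.004 and the range ran only from -0.07 to 0.22. Fkbp5, a cochaperone induced by androgens and glucocorticoids, had -0.05 ± 0.16 (SE). Tsc22d3, the glucocorticoid-induced leucine zipper, had 0.06 ± 0.17 (SE), but -0.73 ± 0.29 and 0.07 ± 0.48 by its other tested probes, detected on 9 and 10 arrays. In androgen and steroid metabolism, 21 genes had a median of 0.012, and the largest value was 0.95 ± 0.25 (SE) for Ugt2b36, a steroid-conjugating glucuronosyltransferase. Its signal averaged 5.78 and 5.85 in wild-type and S42L cells under DHT and 5.71 and 6.73 under testosterone. Hsd11b1, which regenerates active glucocorticoid, had 0.57 ± 0.24 (SE). Srd5a1, the enzyme that turns testosterone into DHT, was not analysed here.

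In the glucocorticoid-induced list, 0 of 21 genes passed, with 3 lower and 1 higher at an unadjusted p under 0.05, beside 1.81% and 2.28% of all genes, and a median of -0.144, against 0.005 for all genes. Its largest value was that of Hif3a, a HIF subunit that is itself glucocorticoid-induced, at -0.64 ± 0.23 (SE), with a second probe at -0.20.

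Besides oxygen sensing and glycolysis there were 35 lists, among which 0 members passed, where 1 of all 10340 named genes did. Over the 30 with at least 8 tested members the list medians ran from -0.145 to 0.095. No list among the 35 had more than 3 members lower or more than 3 higher at an unadjusted p under 0.05, but the lists differ in size. Of 22 solute and amino acid carriers 3 were lower and 2 higher, beside 1.81% and 2.28% of all genes. Their extremes were Slc38a4 at -0.96, detected on 5 of 12 arrays, and Slc7a7 at 0.78. The 41 cell cycle and DNA replication genes had a median of -0.001, while their median difference between the lines was 0.345 under DHT and 0.319 under testosterone. Of these, 15 were called higher in wild-type cells under DHT and 17 under testosterone, where 11.8% of all genes were called higher under each, and 13.3% and 14.1% lower. The 25 genes of the ATF4 amino acid response had a median of 0.031, with line differences of 0.464 and 0.467 and 15 called higher under each androgen. Its largest member, Slc7a11, the cystine transporter, measured 8.15, 7.97 and 8.10 in wild-type DHT, 6.49, 6.47 and 6.57 in S42L DHT, 7.78, 7.37 and 7.70 in wild-type testosterone and 6.87, 6.65 and 6.77 in S42L testosterone. Wild-type arrays were above S42L arrays under both. The interaction was 0.71 ± 0.17 (SE, adjusted p = 0.598 in limma) by this probe and 0.11 by its second one.

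**Figure D5:**
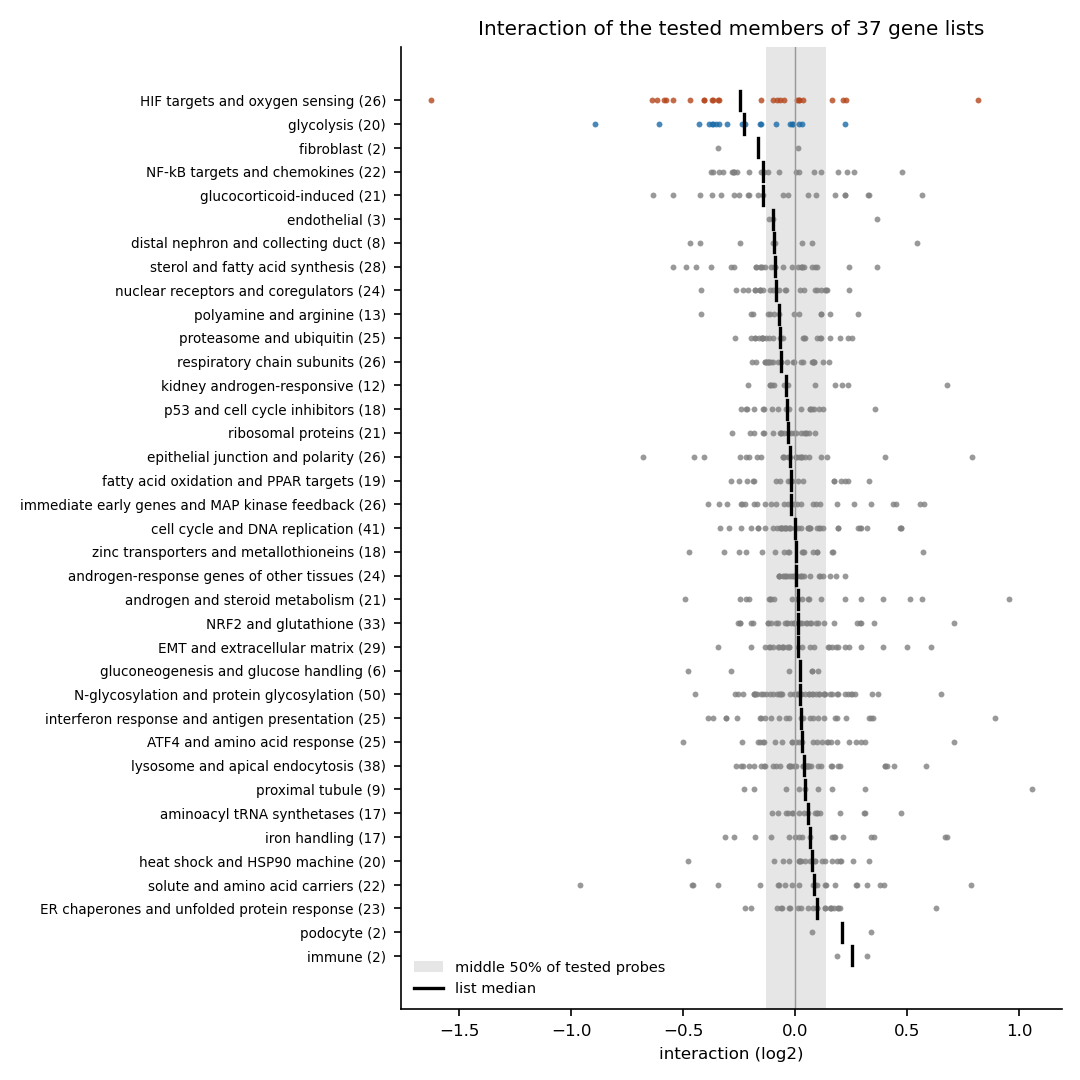
Interaction (log2) of the tested members of 37 gene lists, 1 row per list, ordered by list median, with a point per gene and a black bar for the median. The grey band is the interquartile range of tested probes, -0.132 to 0.139. Left of it lie the medians of oxygen sensing (-0.246), glycolysis (-0.229), fibroblast markers (-0.165, 2 genes), NF-kB targets (-0.145) and glucocorticoid-induced genes (-0.144), and right of it those of the immune (0.255) and podocyte (0.208) markers, 2 genes each.

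Among chaperones the signs leaned the other way without a call. Of 20 heat shock genes 16 lay above 0, with a median of 0.076, and of 23 endoplasmic reticulum chaperones and unfolded protein response genes 16 did, with a median of 0.095. Of all 10340 named genes 5289 lay above 0. Both medians were inside the interquartile range of tested probes, -0.132 to 0.139. At an unadjusted p under 0.05 in limma, 0 of the 20 and 1 of the 23 were higher, and 0 of either list lower. Hspa5, the chief chaperone of the endoplasmic reticulum, had 0.63 ± 0.22 (SE). Among 26 immediate early genes 3 were higher and 1 lower at an unadjusted p under 0.05, beside 2.28% and 1.81% of all genes, and the list median was -0.018. Egr1, an immediate early transcription factor, had 0.56, Jun, a subunit of AP-1, 0.57 and Dusp5, a phosphatase of ERK, 0.45, against -0.39 for Etv5, an ERK target. In the interferon list Ifit3, an interferon-induced antiviral gene, measured 5.42 and 7.03 on average in wild-type and S42L cells under DHT and 5.41 and 7.91 under testosterone. Its interaction was 0.89 ± 0.18 (SE, adjusted p = 0.488 in limma) and 0.33 by a dim second probe, while the list median was 0.025. Anpep, a brush border aminopeptidase, had the largest value of the tubule markers, 1.06 ± 0.28 (SE), and was detected on 8 of 12 arrays. The 50 glycosylation genes had a median of 0.023, and the 21 ribosomal protein genes -0.034.

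Outside the lists, the genes that followed Egln3 by p-value were named after their values were seen. Dok3, an adaptor of immune receptor signalling, measured 5.94, 5.86 and 5.78 in wild-type DHT and 5.25, 5.15 and 4.97 in S42L DHT. It measured 5.21, 4.86 and 5.01 in wild-type testosterone and 5.50, 5.47 and 5.37 in S42L testosterone. Its variant difference was called with opposite signs (0.74 and -0.42), but its interaction of 1.15 ± 0.16 (SE) was not (limma, adjusted p = 0.121), and it was detected on 9 of 12 arrays. With the authors' processed values it passed, at 1.83 (limma, adjusted p = 0.0209), while without background correction it stood at 0.35 (limma, adjusted p = 1). These were the extremes of 23 alternatives. Chdh, choline dehydrogenase, had -0.97 ± 0.19 (SE), and -0.72 by a second probe. Muc20, a mucin, had -0.61, Lpcat2, a lysophospholipid acyltransferase, 0.91, Unc13a, a vesicle priming factor, -1.11, G6pc2, a glucose-6-phosphatase catalytic subunit, 1.07 and Agt, angiotensinogen, 0.79. Agt was detected only on the S42L testosterone arrays and G6pc2 only on S42L arrays, so both values rest on groups at background, as do those of Lpcat2, undetected on the wild-type testosterone arrays, and Unc13a, undetected on the S42L testosterone arrays. Tmem161b, next after Muc20 by p-value, had -0.90. It was detected only on the wild-type testosterone arrays, so its value rests on groups at background too. Second probes of Lpcat2 and G6pc2 gave -0.06 and 0.37.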

How the data were processed

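Per the file headers, the deposited table holds an average bead intensity per probe and array, neither background-subtracted nor normalized, and the deposited detection p-value sets each probe against negative control beads. The submitters' processing notes name BeadStudio. A deposited table of the authors' processed intensity values, whose background method is not given in the sources used here, was an alternative only. Here neqc in limma 3.58.1 (R 4.3.3) estimated background with the detection p-values, added an offset of 16, quantile-normalized the signals and took log2. Probes with detection p under 0.05 on at least 3 arrays were tested, 19480 of 45281, with lmFit and eBayes (4 group coefficients, 8 residual and 4.32 prior degrees of freedom) and Benjamini-Hochberg adjustment over all of them. The fit was tested on simulated data. Platform annotation gave 34885 probes 1 symbol, 18 several and 10378 none. Each gene was represented by its brightest tested probe. The number of arrays limits the precision.

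Members and gene lists were chosen with earlier results of these data known. Of 1003 listed genes, 913 were on the array (13 by a synonym) and 724 were tested. Genes named were all those called in the interaction, the largest value of each list and 19 fixed genes; others are stated as named after their values were seen, and so are Egr1, Dusp5, Etv5 and the further list members. Alternatives changed the scaling, background correction, offset, filter, blocks, variance prior and probe choice, and left out each array.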

Additional observations from a re-analysis of the deposited data

Results flagged for a closer look

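Egln3 was flagged because the difference between wild-type and S42L cells differed between the androgens by a test of the difference itself, with an interaction of -1.63 on the log2 scale (limma, adjusted p = 0.00135). Its variant difference was -0.43 under DHT and 1.20 under testosterone. Its second tested probe had an interaction of -0.08. No group held enough arrays for a search for single outlying arrays.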

How the results depend on the processing

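The interaction gave 1 called probe, which was lower. It gave 2 lower probes, Egln3 and Aldoc, without background correction, with an offset of 50 and with a variance prior that follows the mean signal. With the authors' processed values it gave 2, of which 1 (Dok3) was higher. With array position as a block it gave 0 in limma, 0 of them lower, with 920 probes at an unadjusted p under 0.05 and 4 residual degrees of freedom. Leaving out each array in turn gave 1 every time (0 higher, 1 lower), and the variant calls ran from 3256 to 5494 under DHT and from 3107 to 4841 under testosterone. The interaction probes at an unadjusted p under 0.05 in limma, 905 with all arrays, then ran from 739 to 1321. They numbered 1321 without wild-type testosterone replicate 2 and 1218 without replicate 3 of that group. Replicate numbers did not pair the samples: deviations of same-numbered arrays correlated at -0.047 to 0.121 and those of other arrays at -0.132 to 0.11. With the replicate number as a block there were 1 called interaction and 4268 and 4391 variant calls. Egln3 kept its sign in all 23 alternatives and its call in 21, losing it with array position as a block and with the mean of its probes. Of 2178 values recomputed for 95 genes, 68 changed sign, in 20 genes, none of them called. Median scaling moved the split of probes at an unadjusted p under 0.05 to 578 higher and 225 lower, against 460 and 445. The fit without a shared variance prior was added after seeing the data. So were the alternatives for gene lists, apart from median scaling and the mean of a gene's probes. Small differences of dim probes are compressed by background.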
